A study of Homo sapiens with 30 samples.

Results

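NR4A1, NR4A2 and NR4A3, the IER genes IER2, IER3, IER5 and IER5L, and GADD45B were followed in BEAS-2B cells, an immortalised human bronchial epithelial line, after exposure to whole birch pollen. The 8 genes were taken by name, and the probes with one of these names in the array files were used: 12 of the 58201 probes of the main array design, of which 11 were among the 32100 probes tested. All 12 probes are on both array designs used. NR4A3 was well above background only with 1 of its 2 probes; the other (9, 102595751 to 102595810, hg19) was above background on 0 of 30 arrays.

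The cells had been grown on Transwell inserts and kept at the air-liquid interface for 24 h. They then received 10 mg of birch pollen blown into a sedimentation chamber with pressured air, or went through the same handling in a concomitant mock exposure without pollen, labelled air. There were 10 groups of 3 arrays each, pollen and air at 10 min and 55 min, at 2h25 min, at 6h50 min, and at 24 h. All groups share this cell line, the handling and the air pulse, so that differences between times hold the response to handling. Differences between pollen and air at 1 time compare cells with the same handling, apart from a mesh that per the study kept pollen off the mock cells. Variation in handling between single arrays can remain in these differences and was not tested. The cells are 1 immortalised line, grown with no other cell type. KRT8, KRT18, KRT7, KRT19, KRT5, CDH1 and EPCAM, which mark epithelial cells, were well above background on 30 of 30 arrays, as were the mesenchymal markers VIM, CDH2 and COL1A1. Of 2 endothelial markers, PECAM1 was above background on 0 arrays and VWF on 28 of 29, at -7.08 to -4.41. The leukocyte marker PTPRC was above background on 30 arrays at -6.07 to -3.62, and CD3E, of T cells, on 17 at -9.23 to -5.24. SCGB1A1 and MUC5AC, made by airway secretory cells, were above background on 29 arrays at -5.97 to -3.67 and on 27 at -7.16 to -4.56, and FOXJ1, of ciliated cells, on 8. The part of such markers in the results below was not tested.

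The NR4A proteins are orphan nuclear receptors whose activity is set mainly by how much of them is made, and their genes respond to growth factors, cAMP, calcium and stress within minutes, with no need for new protein. The immediate early response (IER) genes share this fast induction rather than a common protein fold: IER3 acts on cell survival and on NF-kB and ERK signalling, and IER5 and its relative IER5L bind the phosphatase PP2A. GADD45B is a small stress protein that activates the kinase MAP3K4 and is a known NF-kB target.

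All levels are log2 spot intensity minus the 75th percentile of the same array, so that 0 is a probe as bright as that percentile and 1 unit is a doubling. Levels of different probes cannot be ranked against each other. Tests are from 1 limma model over the 30 arrays, and called means an adjusted p under 0.05. For pollen against air and for changes between times, a call also needs a change of at least 1.1-fold. Differences are given ± standard error. The separate cultures behind the arrays were not labelled beyond a replicate number. The study's methods speak of repetitions on different days.

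The arrays lie on 5 slides. The 10 min arrays and the 55 min air replicate 1 are on the first. The other 55 min arrays share the second slide with 2h25 min replicates 1 and 2, except the 55 min pollen replicate 1, which is alone on a slide of another array design. All 6h50 min arrays are on a slide of their own with a scan day of its own, and the fourth slide holds the 24 h arrays and 2h25 min replicate 3. Time and slide therefore cannot be told apart for 6h50 min against other times, where 10416 of 32100 probes were called in air between 2h25 min and 6h50 min. The only later array on the first slide is the 55 min air replicate 1. With the slide fitted as a block, values from 10 min to 55 min or 24 h are linked across slides through that array alone. A call kept or lost under that block for these steps rests on it. No pollen array of 55 min is on the first slide. Replicates of a group correlated at 0.972 or more, and no 2 arrays held the same values.

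**Figure D1:**
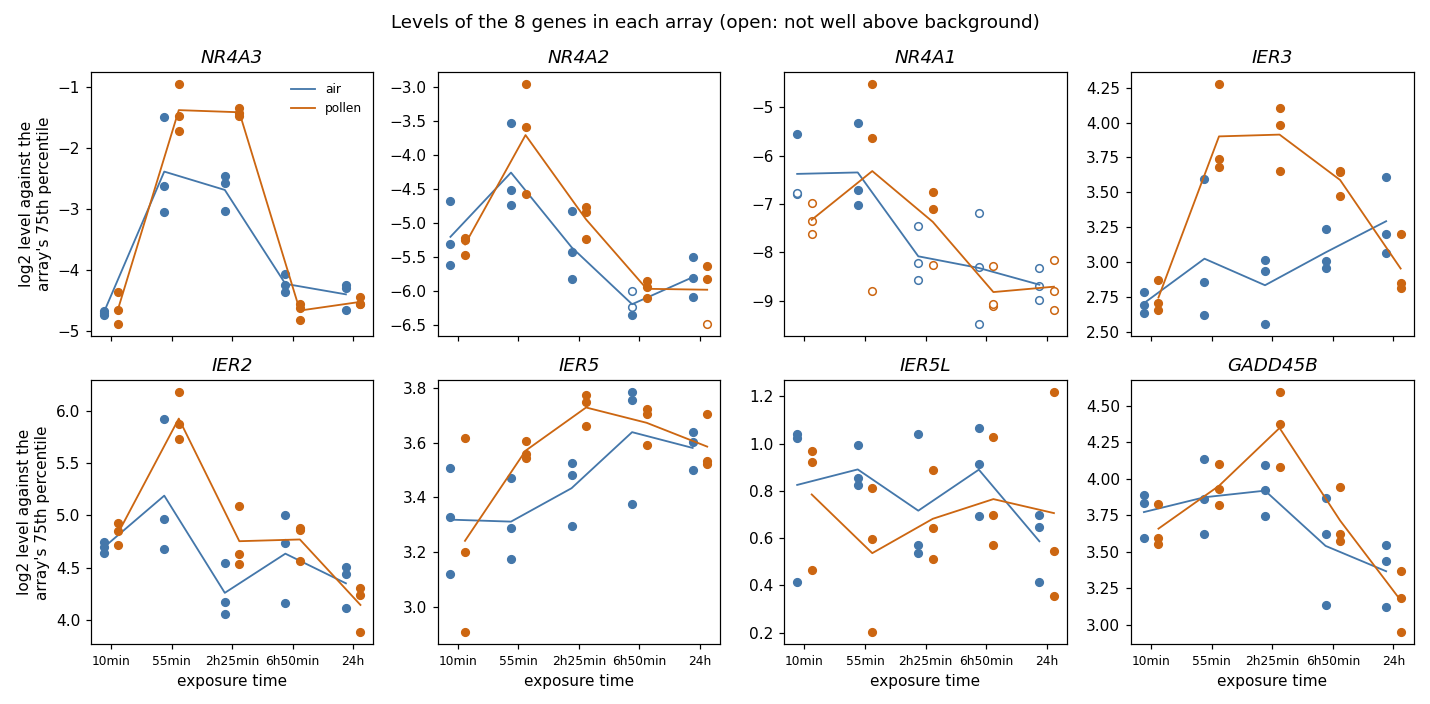
Log2 level of each gene's main probe against the 75th percentile of its array (y axis) at the 5 exposure times (x axis); points are single arrays, lines join group means, and open points were not well above background. NR4A3 lies near -4.7 at 10 min in both exposures and reaches -1.38 on average in pollen at 55 min.

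Against air at the same time, no member was called at any of the 5 times in the main fit, which has no block for replicate number. Several still stood higher in pollen at 55 min and 2h25 min, led by NR4A3 and IER3. Replicate numbers paired the 2h25 min samples. With that number as a block in limma, NR4A3 and IER3 were called there (adjusted p 0.0118 and 0.00958). The share of all probes called, in either direction, was 0% at 10 min, 0.00312% at 55 min, 0.0343% at 2h25 min, 0.0436% at 6h50 min and 0.00312% at 24 h, so that few calls were made anywhere in these comparisons. At 10 min 3 of 8 members were higher, against 51.9% of all probes, at 55 min 7 of 8 against 48.5%, at 2h25 min 7 of 8 against 41.6%, at 6h50 min 5 of 8 against 50.2%, and at 24 h 2 of 8 against 49.1%. The members' median difference was -0.06, 0.41, 0.46, 0.08 and -0.15 at the 5 times in turn, where the median over all probes tested lay between -0.03 and 0.01.

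At an unadjusted p under 0.05 in limma's fit, 0 members were higher at 10 min, where 1.42% of all probes were, 3 at 55 min (1.52%), 4 at 2h25 min (1.51%), 1 at 6h50 min (5.04%) and 0 at 24 h (2.56%). The 3 at 55 min were NR4A3, IER3 and IER2, and the 4 at 2h25 min NR4A3, IER3, GADD45B and IER5. Groups that did not overlap, with every pollen array above every air array, were found for 0 members at 10 min (3.85% of all probes), 2 at 55 min (3.53%), 3 at 2h25 min (2.85%), 1 at 6h50 min (6.51%) and 0 at 24 h (5.33%). In the other direction these were 1 at 10 min, NR4A1 (1.96%), and 1 at 55 min, IER5L (2.93%). They were 0 at 2h25 min (4.12%), 1 at 6h50 min, NR4A3 (5.21%), and 0 at 24 h (3.47%). NR4A1 lay near background, with 0 pollen and 2 air arrays above it at 10 min, and is included in all counts of members. Its difference at 55 min, counted as higher, was 0.03.

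**Figure D2:**
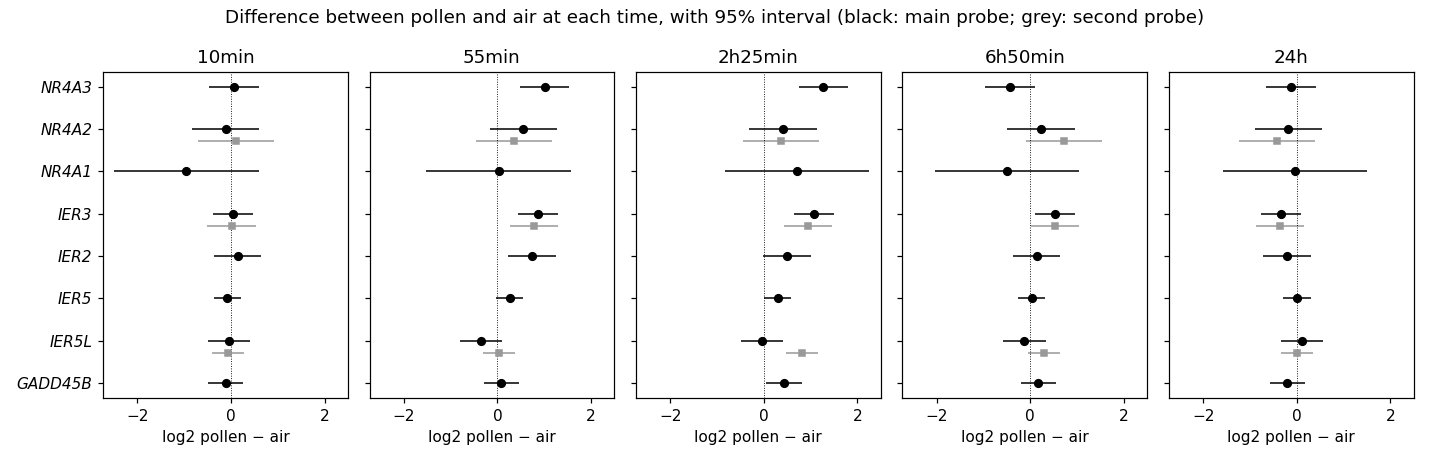
Log2 difference between pollen and air (x axis) for each gene (y axis) at the 5 times, with the 95% interval of the difference; black circles are the main probe and grey squares the second probe. Intervals of NR4A3 and IER3 lie above 0 at 55 min and 2h25 min.

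NR4A3, also called NOR1, was read by a probe at 9, 102628985 to 102629044 (hg19). The 300 bases around its transcript start hold 4 matches to the CRE half-site TGACG, the letters that CREB and its relatives bind. The sequence is shown because this gene had the largest rise (RefSeq, GRCh38.p14, plus strand, chr9:99821635-99821934, 250 bases before to 50 after the start, matches on either strand in capitals):
NR4A3: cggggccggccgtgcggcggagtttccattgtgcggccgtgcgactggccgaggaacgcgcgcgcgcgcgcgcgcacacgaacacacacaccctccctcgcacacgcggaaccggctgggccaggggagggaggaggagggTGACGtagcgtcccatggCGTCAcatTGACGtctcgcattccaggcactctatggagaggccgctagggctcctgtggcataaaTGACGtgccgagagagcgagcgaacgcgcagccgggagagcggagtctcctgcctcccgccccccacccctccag
At least 1 such match was found in 24.6% of 35116 promoter windows of this length, and 4 or more in 0.313%. The full palindrome TGACGTCA was not in the NR4A3 window and was in 1.85% of all. Of the other members, IER2 had 1 match to the half-site, and NR4A1, IER5, IER5L and GADD45B had 0. NR4A2 and IER3 had no window. Other motifs were searched too, and no window of a member held a match to the NF-kB site GGGRNWYYCC. A match in letters says nothing of binding in these cells.

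At 10 min NR4A3 read -4.73, -4.71 and -4.67 in air and -4.89, -4.65 and -4.36 in pollen. At 55 min the air arrays read -3.05, -2.62 and -1.50 and the pollen arrays -1.72, -1.48 and -0.95. Every array had moved up, and 1 air array, replicate 3, lay within the pollen range. At 2h25 min the air arrays read -2.58, -3.03 and -2.46 and the pollen arrays -1.42, -1.35 and -1.48, with no overlap between the groups. At 6h50 min the order was the other way: air at -4.36, -4.08 and -4.25 lay above pollen at -4.56, -4.82 and -4.63, again with no overlap. At 24 h air stood at -4.25, -4.31 and -4.66 and pollen at -4.57, -4.45 and -4.56, and the groups overlapped.

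Ordered by level, pollen at 55 min (-1.38 ± 0.39, SD, n = 3) and pollen at 2h25 min (-1.42 ± 0.06) came first and overlapped. Air at 55 min (-2.39 ± 0.80) and air at 2h25 min (-2.69 ± 0.30) followed and overlapped each other, but air at 55 min did not overlap pollen at 2h25 min. A gap separated these 4 groups from the other 6, between -4.23 and -4.70.

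The pollen difference of NR4A3 was 1.01 ± 0.26 at 55 min, with an unadjusted p of 0.000694 and an adjusted p of 0.92 in the limma fit. At 2h25 min it was 1.27 ± 0.26, or 2.42-fold, with an adjusted p of 0.0918. Replicate numbers paired the 2h25 min samples, and with the replicate number as a block the adjusted p was 0.0118. With the slide as a block it was 0.0272. Within the second slide, with 2 arrays a group, the difference was 1.42, and within the fourth, with 1 array a group, it was 0.98. At 6h50 min NR4A3 was -0.44 ± 0.26 in pollen against air, with an adjusted p of 0.803. The change of the pollen difference from 2h25 min to 6h50 min was -1.71 ± 0.36, with an unadjusted p of 9.95e-05 and an adjusted p of 0.374 in limma's interaction test, so the turn in direction did not pass.

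NR4A3 had the largest rise of the 8 members from 10 min to 55 min. In air it rose by 2.31 ± 0.26 from 10 min to 55 min (adjusted p 0.000104), and in pollen by 3.25 ± 0.26 (adjusted p 1.73e-07), which is 9.52-fold. With the slide as a block these were 1.65 and 2.43, with adjusted p of 0.0611 and 0.116, so both calls were lost. Between 55 min and 2h25 min it changed by -0.30 in air and -0.04 in pollen, neither called. From 2h25 min to 6h50 min it was lower by 1.54 in air and by 3.25 in pollen, both called, in comparisons where slide and time cannot be told apart.

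NR4A2, or NURR1, was read by 2 probes on chromosome 2, at 157181727 to 157181786, the main probe, and 157182256 to 157182315 (hg19). It was dim, above background on 27 of 30 arrays with either probe. At 10 min the main probe read -5.62, -5.31 and -4.69 in air and -5.26, -5.47 and -5.22 in pollen. At 55 min it read -4.74, -4.51 and -3.53 in air and -4.58, -3.60 and -2.96 in pollen, so that the highest array of each group was its replicate 3. At 2h25 min the air arrays read -5.82, -5.43 and -4.82 and the pollen arrays -5.24, -4.77 and -4.84. The groups overlapped at each of these times. From 10 min to 55 min NR4A2 rose by 1.61 ± 0.35 in pollen (adjusted p 0.0277), where the second probe gave 1.49 with an adjusted p of 0.0735. The rise in air was 0.94 ± 0.35 and was not called (adjusted p 0.326). With the slide as a block the pollen value was 1.32, with an adjusted p of 1. Against air the pollen difference was 0.55 ± 0.35 at 55 min and 0.41 ± 0.35 at 2h25 min, with adjusted p of 0.92 and 1. At 6h50 min both probes were below background on 2 of 3 air arrays, so that no size is given for the step from 2h25 min to 6h50 min in air.

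NR4A1, also called NUR77, was at the edge of detection. Its probe (12, 52453226 to 52453285, hg19) was well above background on 9 of 30 arrays: air replicates 1 and 2 at 10 min, all 3 air arrays and pollen replicates 2 and 3 at 55 min, and pollen replicates 2 and 3 at 2h25 min. At 55 min the air arrays read -6.71, -7.01 and -5.32 and the pollen arrays -8.81, -5.63 and -4.51. The lowest of these was the pollen array of the other design, not well above background, and the highest values of both groups were again in replicate 3. With 0 arrays above background at 2h25 min in air, NR4A1 was at least 1.61-fold lower there than at 55 min, a bound from the dimmest probe called above background on each array, and the fit gave an adjusted p of 0.999. In pollen 2 of 3 arrays were above background at 55 min and 0 of 3 at 10 min, where they read -7.36, -6.99 and -7.63; the groups overlapped, and the comparison was not called (adjusted p 0.564). None of the 12 arrays at 6h50 min and 24 h was above background. Air at 24 h was called against air at 10 min, at least 1.17-fold lower, with 2 of the 3 arrays at 10 min above background (adjusted p 0.0185).

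IER3, also known as IEX-1, a regulator of cell survival that NF-kB induces, was bright and was read by 2 probes on chromosome 6, at 30711312 to 30711371, the main probe, and 30711576 to 30711635 (hg19). The study named it for 55 min from these samples, so its direction there is not independent evidence. At 10 min it read 2.79, 2.64 and 2.69 in air and 2.66, 2.87 and 2.70 in pollen. At 55 min the air arrays read 2.62, 2.86 and 3.60 and the pollen arrays 3.74, 3.68 and 4.28. The groups did not overlap, although air replicate 3 came within 0.1 of the lowest pollen array. With the second probe they did: air read 1.12 to 2.25 and pollen 2.10 to 2.77. At 2h25 min air read 2.93, 2.56 and 3.01 and pollen 4.11, 3.98 and 3.65, with a wider gap. At 6h50 min the gap was smaller, between 2.96, 3.24 and 3.01 in air and 3.47, 3.64 and 3.65 in pollen. At 24 h air at 3.61, 3.06 and 3.20 overlapped pollen at 3.20, 2.81 and 2.85.

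The IER3 difference was 0.88 ± 0.21 at 55 min (unadjusted p 0.000308, adjusted p 0.92), 1.08 ± 0.21 at 2h25 min (adjusted p 0.0586), 0.52 ± 0.21 at 6h50 min (adjusted p 0.492) and -0.34 ± 0.21 at 24 h in limma's fit. The second probe gave 0.79, 0.95, 0.53 and -0.36 at these times. At 2h25 min the replicate block brought the adjusted p to 0.00958 and the slide block to 0.0406, and without pollen replicate 3 it was 0.0436. Within slides the difference was 1.30 on the second and 0.64 on the fourth. IER3 rose in pollen by 1.16 ± 0.21 from 10 min to 55 min (adjusted p 0.00929), by 0.62 with the slide as a block and an adjusted p of 1. In air it changed by 0.32 ± 0.21 over the same step (adjusted p 0.582). Pollen arrays at 55 min and 2h25 min were the 2 highest groups and overlapped each other. Pollen at 6h50 min came next; it lay below every pollen array of 55 min and overlapped those of 2h25 min by 1 pair of arrays.

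**Figure D3:**
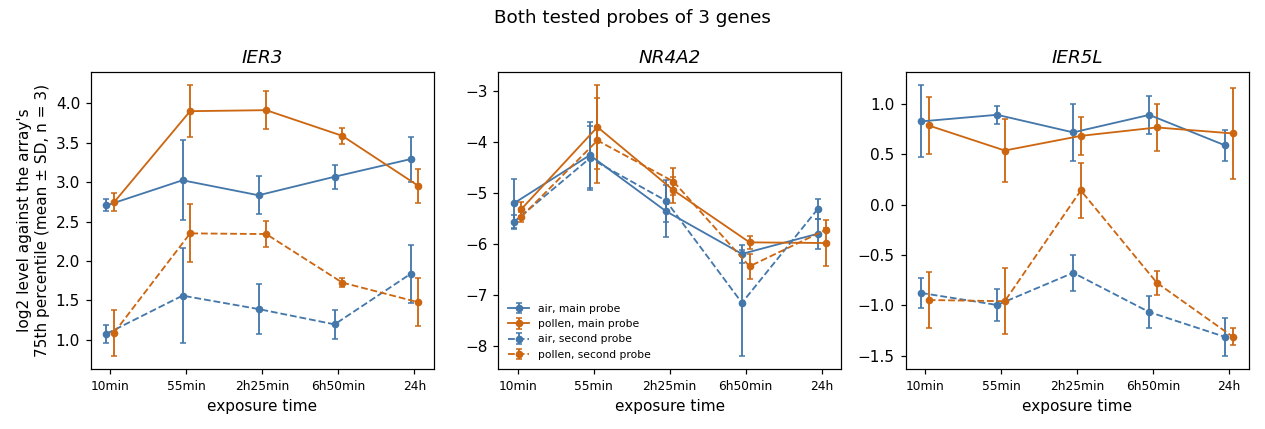
Mean log2 level ± SD (n = 3) of both tested probes of IER3, NR4A2 and IER5L (y axis) by exposure time (x axis); full lines are the main and dashed lines the second probe, blue air and orange pollen. The probes of IER3 run in parallel, while for IER5L only the second probe stands out in pollen at 2h25 min, at 0.14.

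IER2, a fast-induced nuclear protein, was read at 19, 13265586 to 13265645 (hg19), and in pollen its mean was 4.83 at 10 min, 5.93 at 55 min and 4.75 at 2h25 min. At 10 min it read 4.69, 4.65 and 4.74 in air and 4.72, 4.85 and 4.93 in pollen. At 55 min air read 4.68, 4.97 and 5.92 and pollen 5.73, 5.87 and 6.18, where air replicate 3 lay among the pollen arrays. At 2h25 min air was at 4.55, 4.06 and 4.17 and pollen at 5.09, 4.54 and 4.63, with a slight overlap. IER2 rose by 1.09 ± 0.24 in pollen from 10 min to 55 min (adjusted p 0.0335) and fell by 1.17 to 2h25 min (adjusted p 0.0444). The rise was 0.43 with the slide as a block, with an adjusted p of 1, and the fall lost its call without any 1 of the 6 arrays. Air changed by 0.50 and -0.93 over these steps, with adjusted p of 0.473 and 0.561. Against air the pollen difference was 0.74 ± 0.24 at 55 min (unadjusted p 0.00617, adjusted p 0.92) and 0.49 ± 0.24 at 2h25 min (adjusted p 1).

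The calls against air at 55 min depended on single arrays. Without air replicate 3 the NR4A3 difference was 1.45 and the IER3 difference 1.16, and both were called, with adjusted p of 0.00304 and 0.0197. With it kept but the arrays weighted by their quality, NR4A3, IER3, IER2 and NR4A2 were called. The weights were 0.94 for air replicate 3 and 0.12 for the pollen array of the other design. Replicate 2 had the largest weight of each group, 6.32 in air and 3.34 in pollen, so these calls lean mostly on those arrays. The scaling of the arrays also moved these differences. Under 4 other scalings the median difference of all probes at 55 min moved by -0.16 to -0.36, and the NR4A3 difference was then 0.42 to 0.59. NR4A3, IER3, IER2 and NR4A2 were higher in pollen at 55 min under each of the 17 alternatives, scalings included. GADD45B, NR4A1 and IER5 changed sign in some of them, and IER5L was lower in each.

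IER5 was read at 1, 181059835 to 181059894, and IER5L at 9, 131939773 to 131939832, the main probe, and 131937868 to 131937927 (hg19). IER5 is known as a target and partner of heat shock factor HSF1. The promoter window of each gene holds 1 match to GAANNTTC, a pair of heat shock element units, found in 6.77% of all windows. The matches are shown because the relatives have the same 8 letters there (RefSeq, GRCh38.p14, matches in capitals; chr1:181088458-181088497 on the plus and chr9:129178450-129178489 on the minus strand):
IER5: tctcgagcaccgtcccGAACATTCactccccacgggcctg
IER5L: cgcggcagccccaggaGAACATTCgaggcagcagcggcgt

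IER5 moved little. At 2h25 min it read 3.29, 3.48 and 3.53 in air and 3.66, 3.77 and 3.75 in pollen, and at 55 min 3.17, 3.29 and 3.47 in air and 3.56, 3.61 and 3.54 in pollen. The groups did not overlap at either time. The differences were 0.29 ± 0.14 and 0.26 ± 0.14, with adjusted p of 1 and 0.92. Its values over the whole series lay between 2.91 and 3.78.

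The probes of IER5L disagreed. With the main probe, chosen as the brighter, it read 0.54, 1.04 and 0.57 in air and 0.89, 0.64 and 0.51 in pollen at 2h25 min, a difference of -0.03 ± 0.22, and no comparison of times was called. The second probe read -0.74, -0.47 and -0.81 in air and 0.13, 0.42 and -0.13 in pollen, with no overlap. Its difference was 0.82 ± 0.17, with an adjusted p of 0.1 in the main limma fit, 0.00897 with the replicate block and 0.0433 with the slide as a block. In pollen it rose by 1.1 ± 0.17 from 55 min to 2h25 min (adjusted p 0.00246) and was lower by 0.92 at 6h50 min (adjusted p 0.00037). The main probe's value for that last step was 0.08. At 55 min the second probe read -0.67, -0.89 and -1.31 in pollen and -0.87, -0.94 and -1.17 in air, and the groups overlapped. Which transcripts the probes read was not tested.

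GADD45B (19, 2478178 to 2478237, hg19) was highest in pollen at 2h25 min. It then read 4.37, 4.59 and 4.08, against 3.92, 4.09 and 3.74 in air, and the groups overlapped by 1 pair of arrays. The difference was 0.43 ± 0.18 (unadjusted p 0.0269, adjusted p 1). At 55 min it was 0.08 ± 0.18. GADD45B was lower in pollen at 6h50 min than at 2h25 min by 0.63 ± 0.18 (adjusted p 0.011) and lower again at 24 h by 0.55 (adjusted p 0.0221), on other slides. From 10 min to 24 h it was lower by 0.49 in pollen (adjusted p 0.0386), which with the slide as a block was 0.24 higher.

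Counted together, NR4A3 alone of the 8 members was called higher in air between 10 min and 55 min and 0 were called lower, where 0.115% of all probes were called higher and 0.0717% lower. In pollen 4 of 8 were called higher over this step (NR4A3, NR4A2, IER3 and IER2) and 0 lower, where 0.421% of probes were called in each direction. Under the 4 other scalings 1 to 3 members were, and the higher share among all called probes went from 50% to between 18.4% and 21%. Whether the rise differed between the exposures was tested by interaction, and no member passed. The difference in rise was 0.94 ± 0.36 for NR4A3 and 0.84 ± 0.29 for IER3, both with an adjusted p of 0.945, and limma called 0% of all probes, with unadjusted p of 0.0167 and 0.00869 for these 2 genes. In the later interactions 0%, 0.00312% and 0% of probes were called, and 0 members.

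Between 55 min and 2h25 min 0 members were called in air in either direction, where 0.00935% of probes were called higher and 0.00623% lower, and at an unadjusted p under 0.05 in limma's fit 3 were lower. In pollen IER2 was called lower, where 0.159% were called higher and 0.0436% lower. NR4A2 changed by -1.24 in pollen over this step (adjusted p 0.204) and by -1.83 with the slide as a block (adjusted p 0.0187). From 2h25 min to 6h50 min, 1 member was called lower in air, where 9.9% of probes were called higher and 22.6% lower, and 3 in pollen (NR4A3, NR4A2 and GADD45B), where 11.1% and 19.9% were. Between 6h50 min and 24 h 0 were called in air, where 24.7% of probes were called higher and 15.9% lower, and 3 were lower in pollen (IER3, GADD45B and IER2), where 21.8% and 14.5% were.

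For 24 h against 10 min, IER3 was called higher and NR4A1 lower in air, where 17.5% and 20% of probes were, and GADD45B and IER2 were called lower in pollen, where 15.8% were called higher and 19.5% lower. With the slide as a block none of these 4 calls was kept.

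**Figure D4:**
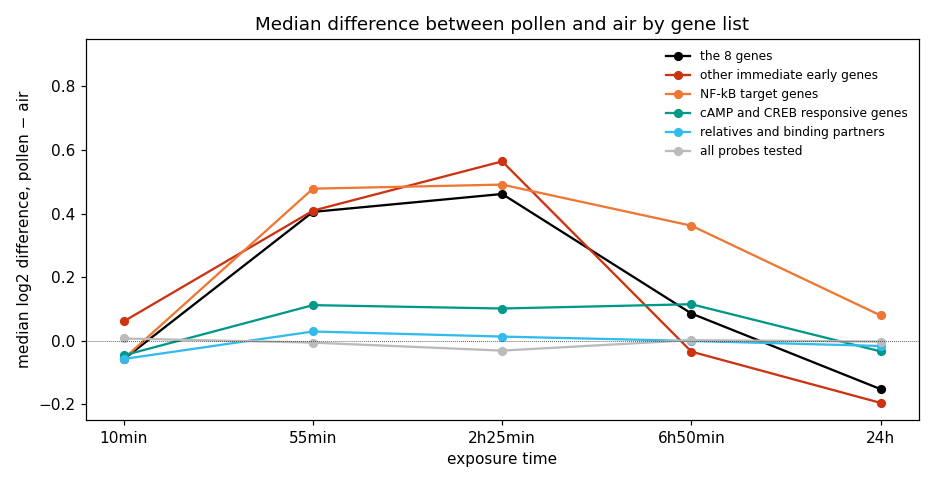
Median log2 difference between pollen and air (y axis) at each exposure time (x axis) for the 8 genes, the 4 other gene lists and all probes tested. The 8 genes and the other immediate early genes have their highest medians at 2h25 min, at 0.46 and 0.56, and the NF-kB target genes stay at 0.36 at 6h50 min.

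The other genes of these pathways were read from 4 lists, of which the study itself named several genes from these samples. Of 26 other immediate early genes 25 were tested. CCN2, a matricellular growth factor, was the only one called against air, higher by 0.81 ± 0.12 at 55 min (adjusted p 0.0281) and by 1.44 ± 0.12 at 2h25 min (adjusted p 1.11e-06). The 55 min call was lost with the slide block (0.65, adjusted p 1), with the replicate block (adjusted p 0.0768), under each of the 4 other scalings (0.39 to 0.69), without the filter, in the fit on the groups compared, and without any 1 of the arrays except air replicate 3; the call at 2h25 min was lost in the fit on the groups compared (adjusted p 0.348) and in the pair of arrays on the fourth slide. With the replicate block KLF10, MYC and CCN1 were called too at 2h25 min, by 0.66, 1.07 and 0.95 (adjusted p 0.00958, 0.00479 and 0.0169). Their median difference was 0.41 at 55 min, with 25 of 25 higher, and 0.56 at 2h25 min, with 24 of 25 higher and 15 of 25 with groups that did not overlap, against 2.85% of all probes. At 6h50 min the median was -0.04 and at 24 h -0.20. From 10 min to 55 min 10 of 25 were called higher in pollen, led by FOSB, a subunit of AP-1 (3.92 ± 0.69), and EGR2, a zinc finger factor (3.17 ± 0.35), and 1 of 25 in air, CCN2. With the slide as a block 1 of the 10 pollen calls was kept, CCN2 at 1.71 (adjusted p 0.00533), while FOSB and EGR2 were 2.47 and 1.72 with adjusted p of 1; under the 4 other scalings 3 to 8 were kept. EGR1 fell by 1.79 in air (adjusted p 0.0378) and by 2.07 in pollen (adjusted p 0.00205) to 2h25 min.

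Of the 12 NF-kB target genes 0 were called against air at any time. With the replicate block IL6 was, at 2h25 min, by 1.45 (adjusted p 0.0436), and ICAM1 at 6h50 min (adjusted p 0.0465). Pairing by number was not shown for every pair at 6h50 min. All 12 were higher at 2h25 min and at 6h50 min, with medians of 0.49 and 0.36, where the medians over all probes were -0.03 and 0.00. ICAM1, an adhesion molecule, and SOD2, the mitochondrial superoxide dismutase, had the smallest p at 6h50 min, at 0.46 ± 0.14 and 0.50 ± 0.17 (adjusted p 0.269 and 0.343). At 55 min TNFAIP3, which dampens NF-kB, and CXCL2, a neutrophil chemokine, had it with 1.09 ± 0.29 and 1.61 ± 0.49, both with an adjusted p of 0.92. IL6 and NFKBIA were called higher in pollen from 10 min to 55 min, by 2.59 and 1.02. Both calls were lost with the slide as a block, at 1.41 and 0.52 (both adjusted p 1), and under the 4 other scalings.

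Of the 10 cAMP and CREB responsive genes 9 were tested, and 0 were called against air, with medians between -0.05 and 0.11; with the replicate block AREG, a ligand of the EGF receptor, was called at 2h25 min, by 0.66 (adjusted p 0.0284). PER1, a clock gene with cAMP response elements, rose from 10 min to 55 min in both exposures, by 0.72 ± 0.13 in air (adjusted p 0.0138) and 0.70 ± 0.13 in pollen (adjusted p 0.0104). PDE4D, a cAMP phosphodiesterase, rose in pollen by 0.79 ± 0.13 (adjusted p 0.00409); its air value was 0.48 (adjusted p 0.137). The calls of PER1 and PDE4D were lost with the slide as a block, with adjusted p of 0.209 for PER1 in air, 1 for PER1 in pollen and 0.936 for PDE4D, and under the 4 other scalings. Of the 14 relatives and binding partners, among them the NR4A partners RXRA and RXRB, GADD45A and the GADD45B target MAP3K4, 0 were called against air, with medians between -0.06 and 0.03. In the interactions, CCN2 was called between 2h25 min and 6h50 min, at -1.32 ± 0.17 (adjusted p 0.00298), and no other list gene was.

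The genes whose 10 group means ran closest to each member were sought among 14915 gene names well above background on all arrays. For NR4A3 they were PER1 (Pearson r 0.96), ERRFI1 (0.95), a feedback inhibitor of the EGF receptor, and KLF10 (0.94). IER2 ran closest to NFKBIZ (0.95), MAGEH1 and the transcript BC020879 (both 0.91), and IER3 to IL6, SUZ12 (both 0.92) and TIPARP (0.91). GADD45B ran with LIPH, ID1 and RGCC (all 0.97), IER5 with PPP1R3B and CCDC85C (0.98 and 0.97) and NOTCH2 (0.94), and the main probe of IER5L with YY2 (0.90), the transcript ENST00000447135 and TH (both 0.89). The points share slides and cultures, and these are descriptions over 10 means. As the highest of 14915 values, they can be high by selection alone, and how high was not tested. Leaving out NR4A1, which was above background on 0 arrays of 6 groups, the closest pair of members was IER2 with NR4A2 (0.83), while NR4A3 ran closer to NR4A2 (0.78) and GADD45B (0.77) than to IER3 (0.60).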

How the data were processed

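The authors deposited spot intensities of 30 one-colour Agilent arrays, which per the file headers were background-subtracted and detrended in Feature Extraction 11.0.1.1, and a table of log2 values. That table has nearly the same quantiles in every column and follows the mean spot brightness, and 0 measurement columns were without a sample. Its 6 columns of 24 h matched another array of their own group best, so only the group is used there. Marked spots were left out (3203), spots of a probe averaged, and the log2 intensity set against that array's 75th percentile (578 to 2111), taken from the 33873 probes that the designs share. With R 4.3.3 and limma 3.58.1, 10 group means were fitted to all arrays (20 residual, 2.35 prior degrees of freedom) for 32100 probes that in 1 group or more were marked well above background on each of its 3 arrays; 44.7% to 59.3% of probes were so marked per array. A total of 0 spots were saturated. The number of arrays limits the precision. The p-values of the main fit rest on the spread between arrays within groups, pooled over the 10 groups, with no block for slide or replicate number.

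The members and gene lists were chosen with earlier results of these data known. Each gene is given by its brightest tested probe, with the range over its other probe. From each list up to 3 called genes with the largest change are named, or the 2 with the smallest p. EGR3 and SIK1 had no tested probe, and CD68 none on the main design. The fit was tested on simulated data. Deviations of same-numbered air and pollen arrays correlated at 0.41 or more at 10 min, 0.48 or more at 2h25 min and 0.28 or more at 24 h, so numbers pair the samples there. At 55 min and 6h50 min 1 pair or more was under 0.1. The alternatives were other scalings, the log2 value table, no filter, array weights, blocks by slide and replicate, dim areas left out, a fit on the groups compared, and each array left out.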

Additional observations from a re-analysis of the deposited data

How the results depend on the processing

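Counts of members called against air were 0 at 10 min, 6h50 min and 24 h under every alternative run. At 55 min the count was 4 with array weights and 0 to 2 with 1 array left out, and at 2h25 min it was 2 with the replicate block, 2 with the slide block and 0 to 1 with 1 array left out. Pairing by number was not shown for every pair at 55 min and 6h50 min, where the replicate block changed no member's call against air. At 55 min the same-numbered pairs correlated at 0.28, -0.07 and 0.40. For changes over time the counts that moved by over 1.5 times are given here; smaller moves, such as 4 to 5 in pollen from 10 min to 55 min and 3 to 4 from 2h25 min to 6h50 min with array weights, or 2 to 3 for 24 h against 10 min with the replicate block, are left out. From 10 min to 55 min the air count of 1 became 0 under normexp with quantile normalization, the deposited value table, the fit on the groups compared and the slide block; the pollen count of 4 became 1 with percentiles over each array's own probes, 2 without a filter, 0 in the fit on the groups compared and 0 with the slide block. From 55 min to 2h25 min the air count was 1 and the pollen count 2 with array weights, while the pollen count of 1 became 0 with own percentiles, no filter, the fit on the groups compared, the replicate block or 1 array left out. From 2h25 min to 6h50 min the air count of 1 became 0 under normexp and under the value table and 2 with array weights or the replicate block, and the pollen count of 3 became 1 with own percentiles. From 6h50 min to 24 h the pollen count of 3 became 0 with own percentiles, quantile normalization or the value table and 1 under normexp. For 24 h against 10 min the air count of 2 became 0 with own percentiles or the slide block, 1 under normexp, quantile normalization, no filter or the value table and 5 with array weights, and the pollen count of 2 became 0 with own percentiles, no filter or the slide block and 4 with array weights. The cause of these shifts was not tested. With 1 array left out the ranges were 1 to 1, 0 to 0, 1 to 2, 0 to 0 and 0 to 2 in air and 2 to 4, 0 to 0, 1 to 3, 0 to 2 and 0 to 2 in pollen, in the same order, and 0 to 1 for the interaction from 2h25 min to 6h50 min, where NR4A3 passed without the 6h50 min air replicate 3. Many values that were not called changed sign between settings, such as GADD45B against air at 55 min, from -0.34 to 0.21. Another 3 turns were these. With the slide as a block, 24 h against 10 min, the second IER5L probe in air was 0.049 and GADD45B in pollen 0.24. IER5L in pollen from 2h25 min to 6h50 min was -0.92 with its second probe. Of values for single genes, 2826 kept their side of the threshold, 128 lost their call and 43 gained one. The 2826 include values that were not called and changed sign. NR4A1 in air from 10 min to 55 min kept its sign in 8 of 16 alternatives. Over all probes, 11 were called at 2h25 min against air and 44 with the replicate block, and 14 at 6h50 min and 135. The slide block could not be fitted for 6h50 min against other times. NR4A1 lies near background, and its values there are bounds.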
